A study of Mus musculus with 8 samples.

Results

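The CD300 genes encode a family of paired receptors on the surface of myeloid cells, and the 7 described here (Cd300a, Cd300c, Cd300c2, Cd300e, Cd300lb, Cd300ld and Cd300lf) were chosen by symbol, out of 55359 genes listed. Their Ensembl identifiers were matched to mouse gene names through GENCODE annotation, which holds 12 Cd300 genes in all. The list was drawn up with the values of these samples known, and the low level of Cd300lb after LPS/IFNγ was among those values. Total RNA was sequenced from bone-marrow-derived Mϕ (BMDMs) of adult male and female wildtype C57BL/6 mice, differentiated with 20 ng/mL each of M-CSF and GM-CSF in all groups, with n = 2 samples per group. Ctrl were naïve BMDMs, and LPS were naïve BMDMs given 100 ng/mL LPS with 100 U/mL IFNγ for 6 h. Eff were efferocytic BMDMs, which had spent 16 h with apoptotic NIH-3T3 fibroblasts at 5 fibroblasts per Mϕ in the presence of 10 nM dimerizer (whether Ctrl and LPS also received it is not given in the sources used here). LPSEff were efferocytic BMDMs that were then washed and given the same LPS/IFNγ stimulus. The fibroblasts were a single clone carrying a caspase-8 domain that the dimerizer activates, all groups were enriched for CD45+ cells on magnetic beads, and the sources used here do not say whether the samples of a group came from separate mice or cultures, so that p-values measure only the spread between these samples.

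CD300 receptors carry an immunoglobulin-like domain that binds lipids exposed on dying or activated cells, among them phosphatidylserine, phosphatidylethanolamine and ceramide. Cd300a and Cd300lf encode receptors with long cytoplasmic tails bearing inhibitory motifs, which recruit phosphatases such as SHP-1. The others encode receptors with short tails, of which several signal through the adaptors DAP12 (Tyrobp) or FcRγ (Fcer1g). In Mϕ the family is known for tuning the uptake of apoptotic cells and Toll-like receptor signalling. The transcripts of these receptors were compared in naïve and efferocytic BMDMs, each with and without LPS/IFNγ.

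Of the 12 Cd300 genes, 11 lie side by side on mouse chromosome 11, within 256 kb from 114768840 to 115024818 (GRCm39, the build of the files), and Cd300lg stands apart on the same chromosome from 101932328 to 101946950. Cd300a (ENSMUSG00000034652, 114768840 to 114795480) is on the forward strand at one end. Cd300lb (ENSMUSG00000063193, 114813607 to 114825212), Cd300c (ENSMUSG00000058728, 114846942 to 114859983), Cd300ld (ENSMUSG00000034641, 114873099 to 114880748), Cd300c2 (ENSMUSG00000044811, 114887546 to 114895068), Cd300e (ENSMUSG00000048498, 114942743 to 114957500) and Cd300lf (ENSMUSG00000047798, 115007040 to 115024818) follow on the reverse strand. Cd300lf lies inside Rab37, which is on the opposite strand and shares 0 exon bases with it. The coding sequences ranged from 588 bases (Cd300e) to 1011 bases (Cd300lf). Cd300c and Cd300c2 were identical at 82.0% of aligned coding bases, Cd300a and Cd300lf at 52.8%, and Cd300ld4 and Cd300ld5 at 99.9%. Of the stretches of 50 bases (the read length) in their transcripts, 0% of Cd300lb, Cd300e and Cd300c, 1.82% of Cd300a, 1.84% of Cd300lf, 3.89% of Cd300ld and 4.18% of Cd300c2 also occurred in another Cd300 transcript. The shares were 82.1% for Cd300ld3, 93.8% for Cd300ld4 and 100% for Cd300ld5, so that the levels of these copies are uncertain.

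Promoter sequences are shown as a description, and their part in the levels was not tested. They are those of Cd300lb, which lacks the marked motif, and of the Cd300 genes that hold it. The motif marked in them is the core of a site for PU.1, a transcription factor of the myeloid lineage. Cd300ld, Cd300ld3, Cd300ld4 and Cd300ld5 are shown as 40 bases cut around this motif, so that its presence there follows from the choice. The windows of Cd300c and Cd300e, which lack the motif, are not shown. Sequences were taken from RefSeq promoter windows (GRCm38.p6), matched letter for letter to GRCm39, and lie outside annotated exons. Starts are those of RefSeq. The windows of Cd300a, Cd300c2, Cd300c and Cd300e lie inside the gene spans given above, so that the outermost starts of these genes were not searched. Capitals mark GAGGAA or its reverse complement, TTCCTC.
Cd300lb, chr11:114825213-114825312, reverse strand: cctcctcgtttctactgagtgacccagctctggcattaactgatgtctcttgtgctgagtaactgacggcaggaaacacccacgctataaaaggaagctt
Cd300a, chr11:114780767-114780866, forward strand: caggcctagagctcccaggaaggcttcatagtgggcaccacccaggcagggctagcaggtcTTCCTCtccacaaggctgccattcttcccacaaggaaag
Cd300lf, chr11:115024819-115024918, reverse strand: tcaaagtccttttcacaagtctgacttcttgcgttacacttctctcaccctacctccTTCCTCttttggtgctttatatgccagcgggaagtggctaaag
Cd300c2, chr11:114892707-114892806, reverse strand: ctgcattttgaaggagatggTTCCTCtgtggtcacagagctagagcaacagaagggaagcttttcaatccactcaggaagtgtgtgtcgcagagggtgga
Cd300ld, chr11:114880833-114880872, reverse strand: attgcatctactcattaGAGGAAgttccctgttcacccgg
Cd300ld3, chr11:114939321-114939360, reverse strand: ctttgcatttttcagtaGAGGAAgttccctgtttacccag
Cd300ld4, chr11:114917924-114917963, reverse strand: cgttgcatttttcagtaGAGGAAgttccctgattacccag
Cd300ld5, chr11:114928681-114928720, reverse strand: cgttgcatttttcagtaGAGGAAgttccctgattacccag

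Within the 250 bases before the start, GAGGAA occurred on either strand in 7 of the 10 Cd300 genes with a promoter window, and in 23.3% of all 32851 promoter windows. These 7 were Cd300a, Cd300c2, Cd300lf, Cd300ld and the near-copies Cd300ld3, Cd300ld4 and Cd300ld5. The windows of these copies are alike (100% identical between Cd300ld4 and Cd300ld5, 94.8% between Cd300ld3 and Cd300ld4) and thus are not separate instances. Within the nearest 100 bases the motif occurred in 3 of the 10 (Cd300a, Cd300c2 and Cd300lf), beside 9.82% of all windows. TTCNNNGAA, the gamma-activated site through which IFNγ acts, was found on either strand in Cd300e alone (7.02% of all windows). The window of Cd300lb held neither motif, which says only that these letters are not in it.

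Levels are the normalized counts the authors deposited, which are read counts divided by a size factor per sample. The reads behind them could be recovered and numbered 3481288 (Ctrl 1) to 12020918 (Ctrl 2) per sample, and 3 reads were worth 1.73 to 5.71 normalized counts, a floor that covers counting error only. All 10 macrophage markers were well above it in every group (summed 108555 to 165615), and all 6 LPS/IFNγ response genes chosen as a check rose in both stimulated groups. In bulk samples, fewer cells of a type and less RNA per cell cannot be told apart. Differences are given as log2(normalized count + 1) with the standard error (SE) from limma, fitted to 16309 genes whose mean over all samples reached 10 normalized counts. Called means that the adjusted p (Benjamini-Hochberg, over all these genes) was under 0.05. Of the 7 members, 6 passed this filter and Cd300c, with a mean of 5.71, did not.

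Cd300lb was abundant in BMDMs without LPS/IFNγ and low in both stimulated groups. Cd300lb, also called CLM-7 or LMIR5, encodes an activating receptor that pairs with DAP12 and binds phosphatidylserine. It had 1028 and 815 normalized counts in Ctrl against 55.6 and 38.6 in LPS, then 1020.0 and 957 in Eff against 77.6 and 63.5 in LPSEff. Both stimulated groups lay far below both unstimulated ones, with no overlap, and the samples of a group differed little beside that gap. The means were 922 ± 150.5 (SD, n = 2) in Ctrl, 47.1 ± 12.0 in LPS, 988 ± 44.6 in Eff and 70.5 ± 9.99 in LPSEff. The difference of LPS from Ctrl was -4.28 (SE 0.24), a 19.4-fold lower level on the log2(value + 1) scale. In efferocytic BMDMs the difference of LPSEff from Eff was -3.80 (SE 0.24), a 13.9-fold lower level. Both are given as descriptions, since the low level of Cd300lb after LPS/IFNγ was known when the genes were chosen.

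**Figure D1:**
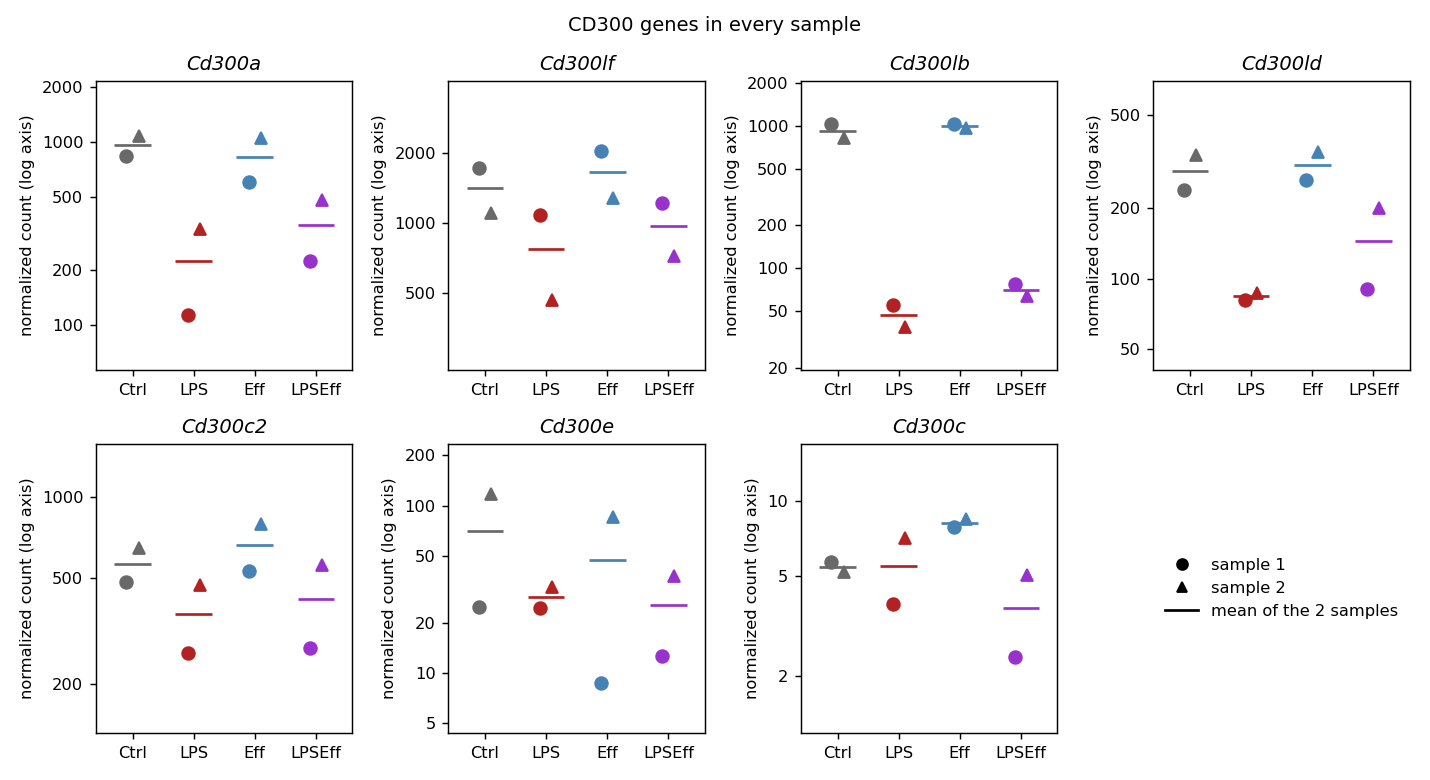
Normalized counts of the 7 CD300 genes in each sample (log axis, 1 panel per gene, each with its own range), with circles for sample 1, triangles for sample 2 and a line at the mean of both. Cd300lb sits between 815 and 1028 in Ctrl and Eff and between 38.6 and 77.6 in LPS and LPSEff, whereas Cd300e and Cd300c2 overlap between most groups.

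The inhibitory receptors were lower on average after LPS/IFNγ, with wide spreads. Cd300a, whose product binds phosphatidylserine and phosphatidylethanolamine and restrains myeloid activation, had 842 and 1081 normalized counts in Ctrl against 113 and 335 in LPS, then 605 and 1055 in Eff against 223 and 484 in LPSEff. Both LPS samples were below both Ctrl samples and both LPSEff samples were below both Eff samples, but the samples within LPS and within LPSEff differed more than 2-fold. The difference of Cd300a was -2.29 (SE 0.55) for LPS vs Ctrl and -1.28 (SE 0.55) for LPSEff vs Eff, and the latter was not called (limma, adjusted p = 0.146). Single samples moved these values, to -1.51 without LPS 1 and to -0.72 without LPSEff 1. Cd300lf, whose product binds phosphatidylserine and ceramide and associates with the IL-4 receptor α chain, had 1729 and 1110.4 normalized counts in Ctrl against 1086 and 468 in LPS, then 2042 and 1290.1 in Eff against 1226 and 722 in LPSEff. The lower Ctrl sample and the higher LPS sample nearly met, without overlap, and the lower Eff sample lay just above the higher LPSEff sample. Its difference was -0.96 (SE 0.45) for LPS vs Ctrl and -0.79 (SE 0.45) for LPSEff vs Eff (limma, adjusted p = 0.274).

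Among the other short-tailed receptors, Cd300ld showed the clearest separation. Cd300ld, also called CLM-5, encodes a receptor that couples to FcRγ. It had 238 and 335 normalized counts in Ctrl against 81.5 and 87.3 in LPS, then 264 and 348 in Eff against 90.3 and 199 in LPSEff, so that stimulated and unstimulated samples did not overlap. The difference was -1.73 (SE 0.37) for LPS vs Ctrl and -1.17 (SE 0.37) for LPSEff vs Eff (limma, adjusted p = 0.0614), and the latter was -0.60 without LPSEff 1.

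Cd300c2, an activating member also called CLM-4, had 479.9 and 645 normalized counts in Ctrl against 261 and 467 in LPS, then 528 and 794 in Eff against 272 and 556 in LPSEff. LPS lay below Ctrl by a narrow gap, while LPSEff and Eff overlapped. Its difference was -0.67 (SE 0.41) for LPS vs Ctrl and -0.73 (SE 0.41) for LPSEff vs Eff (limma, adjusted p = 0.26). Cd300e, known as a receptor of monocytes, had 24.8 and 117 normalized counts in Ctrl against 24.6 and 32.5 in LPS, then 8.76 and 86.1 in Eff against 12.7 and 38.1 in LPSEff. The spread within Ctrl and within Eff exceeded any distance between group means, with differences of -0.92 (SE 1.07) for LPS vs Ctrl and -0.34 (SE 1.07) for LPSEff vs Eff (limma, adjusted p = 0.872). Cd300c was close to the limit of these libraries, with 3 to 12 reads per sample and 2.38 to 8.47 normalized counts, and no fold is given for it.

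Counted together, 3 of the 6 tested members (Cd300lb, Cd300a and Cd300ld) were called lower in LPS than in Ctrl, where 11.6% of all tested genes were called lower, and 0 were called higher. Samples of LPS and Ctrl did not overlap for 5 of the 6, all lower, and for 30.9% of all genes in that direction. The median difference of the 6 was -1.34, beside -0.01 over all tested genes. Since the genes were chosen with these values known, nothing is read from these counts. Without Ctrl 2, only Cd300lb was called (1 of 6), and the call of Cd300a was also lost without Ctrl 1 or LPS 1, while Cd300lf was called without LPS 1. In LPSEff vs Eff, 1 of the 6 members was called lower, beside 8.95% of all genes, and this was Cd300lb, from whose call nothing is read either. Groups did not overlap for 4 of the 6, all lower, against 30.4% of all genes, and the median was -0.98, beside 0.01. As the genes were chosen with values of these samples known, nothing is read from these figures either. The count of members called in LPSEff vs Eff was 4 with samples rescaled to equal totals and 3 with DESeq2 on the recovered reads. It was 2 with quantile normalization or without LPSEff 2 (Cd300lb and Cd300ld).

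**Figure D2:**
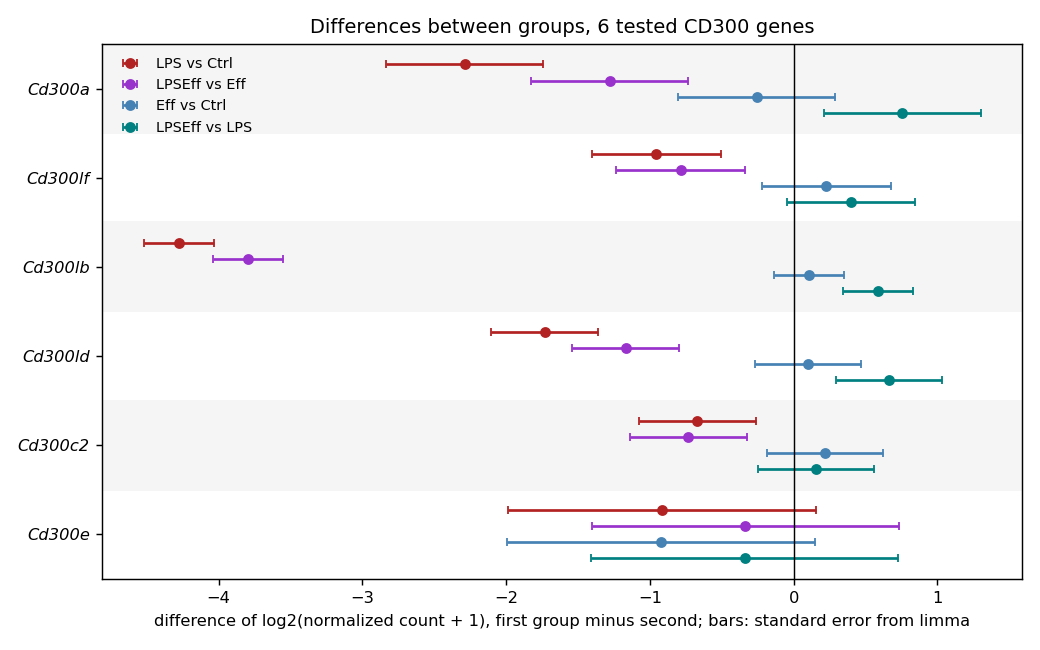
Differences of log2(normalized count + 1) for the 6 tested CD300 genes in 4 comparisons, with bars for the standard error from limma. Both LPS/IFNγ comparisons lie below 0 for every gene, furthest for Cd300lb (-4.28 and -3.80). The comparisons of efferocytic with naïve BMDMs lie between -0.92 (Cd300e, Eff vs Ctrl) and 0.75 (Cd300a, LPSEff vs LPS). Their bars span 0 except those of Cd300a, Cd300ld and Cd300lb in LPSEff vs LPS.

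Efferocytosis without LPS/IFNγ was not accompanied by a called difference in any member. Eff and Ctrl samples overlapped for all 6 tested members, where 16.3% of all genes had groups that did not overlap and were higher in Eff and 17.8% lower. By limma 0 of 6 were called, beside 0.251% of all genes, and 0 of 6 had an unadjusted p under 0.05, beside 6.13%. DESeq2 and edgeR on the recovered reads also called 0. The differences were 0.11 (SE 0.24) for Cd300lb, 0.10 (SE 0.37) for Cd300ld, 0.22 (SE 0.41) for Cd300c2, 0.23 (SE 0.45) for Cd300lf, -0.26 (SE 0.55) for Cd300a and -0.92 (SE 1.07) for Cd300e, each with an adjusted p of 0.999. The 95% interval was narrowest for Cd300lb, from -0.45 to 0.67, and widest for Cd300e, from -3.38 to 1.54.

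After LPS/IFNγ, Cd300lb and Cd300ld were higher in efferocytic than in naïve BMDMs by the order of their samples but were not called. For Cd300lb the difference of LPSEff from LPS was 0.59 (SE 0.24, 95% interval 0.03 to 1.15), with both LPSEff samples above both LPS samples (limma, adjusted p = 0.454), and it was 0.33 without LPS 2. For Cd300ld it was 0.66 (SE 0.37, adjusted p = 0.62), again with no overlap, but 0.0964 without LPSEff 2 and 1.23 without LPSEff 1. Such a separation towards higher levels held for 2 of the 6 members and for 19.3% of all genes. The other differences were 0.75 (SE 0.55) for Cd300a, 0.40 (SE 0.45) for Cd300lf, 0.16 (SE 0.41) for Cd300c2 and -0.34 (SE 1.07) for Cd300e. In all, 0 of 6 members were called by limma, beside 0.773% of all genes, 1 of 6 (Cd300lb) had an unadjusted p under 0.05, beside 10.3%, and DESeq2 and edgeR called 0. The genes were chosen with the low level of Cd300lb after LPS/IFNγ known, and LPS is part of this comparison. These values are therefore descriptions, and nothing is read from the interval or the p-values of Cd300lb.

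Whether the response to LPS/IFNγ differed between efferocytic and naïve BMDMs was tested as an interaction. It was 1.01 (SE 0.77) for Cd300a, 0.58 (SE 1.51) for Cd300e, 0.56 (SE 0.52) for Cd300ld, 0.48 (SE 0.34) for Cd300lb, 0.17 (SE 0.63) for Cd300lf and -0.06 (SE 0.57) for Cd300c2. A positive value means a smaller fall in efferocytic BMDMs. The interaction contains the difference of LPS from Ctrl, whose values were known when the genes were chosen. Its values and signs are therefore descriptions. Of all 16309 genes 0% were called by limma, 311 (1.91%) had an unadjusted p under 0.05, and 0 of the 6 members were among these. DESeq2 and edgeR also called 0 members. The 4 comparisons share samples pairwise, such as Ctrl in LPS vs Ctrl and Eff vs Ctrl, so that their values for a gene are not independent.

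Because genes of different length cannot be compared by counts, levels between members were compared per kb of exon. The 7 members summed to 1227 and 1246 normalized counts per kb in Ctrl, 439.9 and 480.1 in LPS, whereas Eff had 1268 and 1401 and LPSEff had 500.1 and 659. Stimulated and unstimulated samples did not overlap in this sum. It includes Cd300lb, whose low level after LPS/IFNγ was known when the genes were chosen, so that the separation is a description. In Ctrl, the order of levels per kb was Cd300lb (316 ± 51.6), Cd300c2 (307 ± 63.9), Cd300lf (276 ± 85.0), Cd300a (195 ± 34.4), Cd300ld (108 ± 26.0), Cd300e (28.5 ± 26.3) and Cd300c (5.15 ± 0.34, all SD, n = 2). The leading 4 overlapped with their neighbours in this order, and the steps from Cd300a to Cd300ld, Cd300e and Cd300c did not overlap. In LPS, Cd300lb stood at place 5 (16.1 ± 4.13 per kb), below Cd300c2 (199 ± 79.5), Cd300lf (151 ± 84.9), Cd300a (45.5 ± 32.0) and Cd300ld (31.9 ± 1.56) and just above Cd300e (11.4 ± 2.25). Neighbours overlapped there for Cd300c2 with Cd300lf and for Cd300a with Cd300ld. The order in Eff had Cd300c2 (361 ± 103), Cd300lb (339 ± 15.3) and Cd300lf (324 ± 103) in front, overlapping each other, and LPSEff had the same order as LPS.

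**Figure D3:**
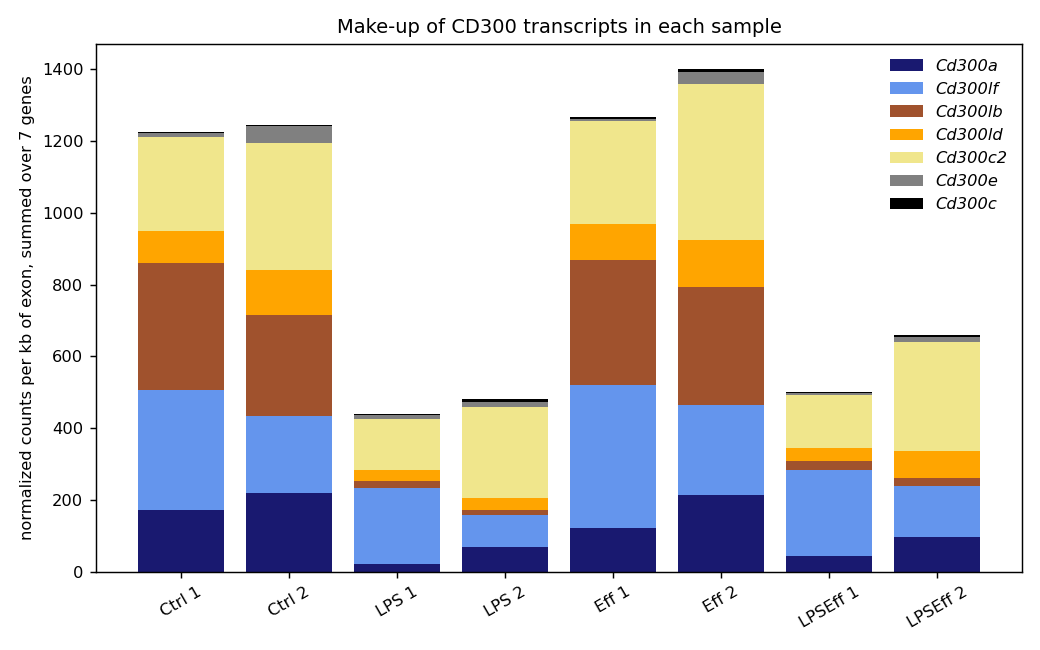
Normalized counts per kb of exon in each sample, stacked over the 7 CD300 genes. The stacks reach 1227 to 1401 in Ctrl and Eff and 439.9 to 659 in LPS and LPSEff, and the band of Cd300lb shrinks from 22.4% or more of the stack to 5.32% or less.

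Cd300lb made up 28.7% and 22.4% of the summed level per kb in Ctrl against 4.33% and 2.76% in LPS, then 27.6% and 23.4% in Eff against 5.32% and 3.30% in LPSEff. The ratio of Cd300lb to Cd300lf per kb, which does not depend on the scaling of a sample, was 1.05 and 1.30 in Ctrl against 0.0904 and 0.146 in LPS, then 0.882 and 1.31 in Eff against 0.112 and 0.155 in LPSEff. Stimulated and unstimulated samples did not overlap in this ratio, which is a description, as for Cd300lb itself. Cd300c2 took 21.4% to 31.0% of the sum in the unstimulated samples and 29.7% to 53.1% in the stimulated ones, which overlapped. With Cd300a and Cd300lf counted as inhibitory and the rest as activating, the ratio of activating to inhibitory levels per kb was 1.42 and 1.86 in Ctrl against 0.881 and 2.02 in LPS, then 1.44 and 2.01 in Eff against 0.765 and 1.76 in LPSEff. All 4 groups overlapped in this ratio, and the spread within LPS covered the values of Ctrl.

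The members fell into opposite patterns between the samples numbered 1 and 2 of each group. Cd300a, Cd300c2, Cd300ld and Cd300e were higher in sample 2 in 4 of 4 groups, with mean log2 differences of 0.96, 0.72, 0.53 and 1.82. Cd300lf and Cd300lb were higher in sample 1 in 4 of 4 groups, with mean log2 differences (sample 2 minus sample 1) of -0.82 and -0.31. Among all tested genes, 29.1% were higher in sample 2 in all 4 groups and 14.7% in sample 1, so that such a pattern is common in these libraries. Sample 2 had more reads than sample 1 in Ctrl, LPS and Eff and fewer in LPSEff (11267193 in LPSEff 1 and 7472370 in LPSEff 2), while the members kept their direction. Neither the labels nor the methods say what the numbers mark, and their part in the pattern was not tested.

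**Figure D4:**
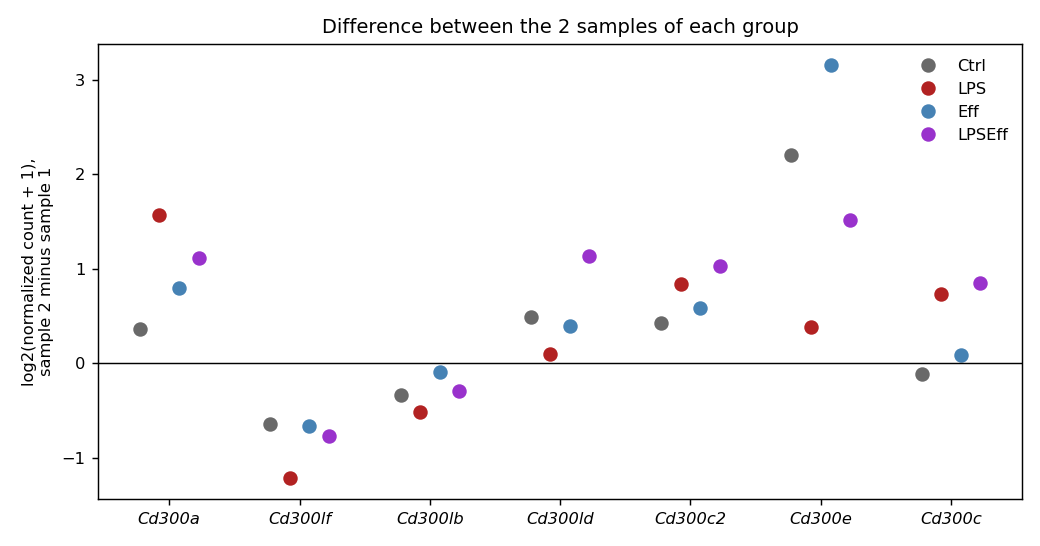
Difference of log2(normalized count + 1) between sample 2 and sample 1 of each group for the 7 CD300 genes, coloured by group. Cd300a, Cd300ld, Cd300c2 and Cd300e lie above 0 in all 4 groups and Cd300lf and Cd300lb below 0, with Cd300e spread widest (0.39 to 3.16).

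Of the remaining Cd300 genes, Cd300lg had 41.9 and 53.8 normalized counts in Ctrl against 12.9 and 11.2 in LPS, then 28.0 and 25.4 in Eff against 18.2 and 5.08 in LPSEff. Cd300lg is known mainly from endothelium. It was lower in LPS than in Ctrl (-1.90, SE 0.56, limma adjusted p = 0.0405) and not called in LPSEff vs Eff (-1.36, SE 0.56, adjusted p = 0.132). Cd300ld3 ranged from 4.06 to 23.3 normalized counts and was not called. Cd300ld2 and Cd300ld4 had at most 4 reads in any sample, and Cd300ld5 had 0 reads in every sample (reads that match several places were left out of the counts). Rab37, the host gene of Cd300lf on the opposite strand, had a mean of 42.4 normalized counts and differences of -1.35 (SE 0.52, adjusted p = 0.103) in LPS vs Ctrl and -1.29 (SE 0.52, adjusted p = 0.128) in LPSEff vs Eff.

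The adaptors and signalling partners of the family did not move as 1 group. Of 17 such genes, all tested, 6 were called higher and 4 lower in LPS vs Ctrl, beside 12.4% and 11.6% of all genes, and 3 were called higher and 4 lower in LPSEff vs Eff, beside 10.7% and 8.95%. Tyrobp, the DAP12 adaptor of Cd300lb, had differences of -0.40 (SE 0.21, adjusted p = 0.213) and -0.43 (SE 0.21, adjusted p = 0.205) and was not called. Fcer1g, the FcRγ adaptor, rose in LPS vs Ctrl by 0.72 (SE 0.21, adjusted p = 0.0401) and in LPSEff vs Eff had 0.59 (SE 0.21, adjusted p = 0.0878).

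Syk and Lyn, which encode kinases that signal with these adaptors, rose in both comparisons. Syk rose by 1.33 (SE 0.19) and 1.24 (SE 0.19), with adjusted p = 0.00198 and 0.00328. Lyn rose by 0.82 (SE 0.17) and 0.62 (SE 0.17), with adjusted p = 0.0105 and 0.0371.

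A further 3 signalling genes were called lower in both comparisons. Inpp5d, which encodes the lipid phosphatase SHIP-1, differed by -1.37 (SE 0.20) and -1.54 (SE 0.20), with adjusted p = 0.00195 and 0.00131. Card9, an adaptor between Syk and NF-κB, differed by -1.67 (SE 0.35) and -1.81 (SE 0.35), with adjusted p = 0.0105 and 0.0086. Btk, a kinase, differed by -0.60 (SE 0.18) and -0.64 (SE 0.18), with adjusted p = 0.047 and 0.0431. Plcg2 was called lower only in the test of LPSEff vs Eff (-0.70, SE 0.20, adjusted p = 0.0388), and Tlr4, the LPS receptor, only in that of LPS vs Ctrl (-0.70, SE 0.21, adjusted p = 0.0445).

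Il4ra, which encodes the chain that Cd300lf associates with, rose by 0.91 (SE 0.24, adjusted p = 0.0272) in LPS vs Ctrl and by 1.29 (SE 0.24, adjusted p = 0.00746) in LPSEff vs Eff. Of the phosphatases that inhibitory CD300 tails recruit, Ptpn6 (SHP-1) had 0.21 (SE 0.27, adjusted p = 0.63) and -0.10 (SE 0.27, adjusted p = 0.84). Ptpn11 (SHP-2) rose by 0.54 (SE 0.17, adjusted p = 0.048) in LPS vs Ctrl and had 0.45 (SE 0.17, adjusted p = 0.102) in LPSEff vs Eff, and Pik3r1 rose by 1.03 (SE 0.28, adjusted p = 0.0325) in LPS vs Ctrl. In both comparisons of efferocytic with naïve BMDMs, 0 of the 17 were called by limma, and an unadjusted p under 0.05 was reached by 0 of them without LPS/IFNγ, beside 6.13% of all genes, and by 2 after it, beside 10.3%.

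**Figure D5:**
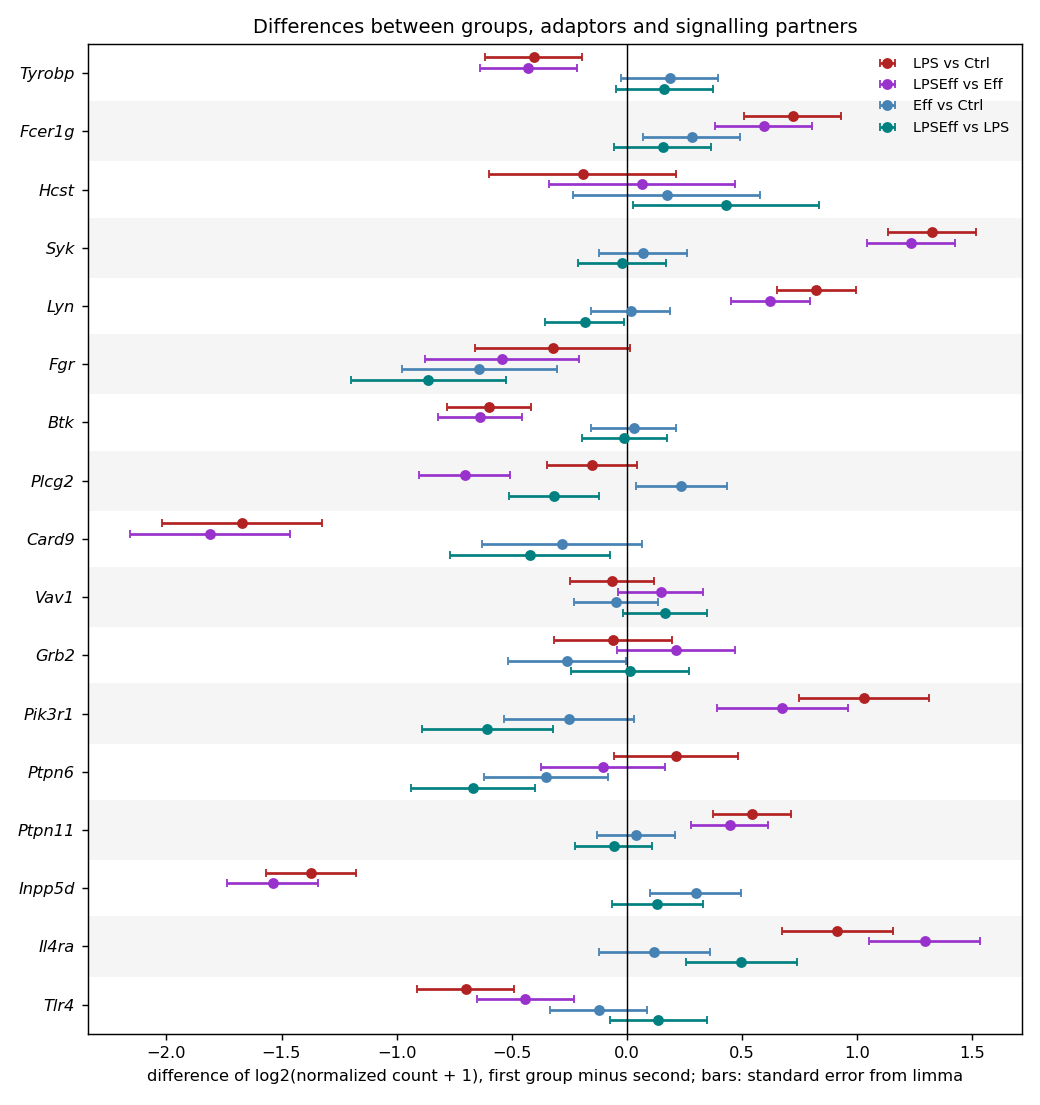
Differences of log2(normalized count + 1) for 17 adaptors and signalling partners of CD300 receptors in 4 comparisons, with bars for the standard error from limma. Syk and Lyn lie above 0 and Inpp5d, Card9 and Btk below 0 in both LPS/IFNγ comparisons, while Tyrobp stays within 0.43 of 0.

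Of 25 other inhibitory or activating myeloid receptors, such as the TREM, SIRP and CD200 receptor families, 22 were tested. In LPS vs Ctrl, 2 were called higher and 5 lower, beside 12.4% and 11.6% of all genes, and in LPSEff vs Eff, 3 higher and 3 lower, beside 10.7% and 8.95%. The largest called changes were those of Cd200r1 (-2.13, SE 0.31), an inhibitory receptor for CD200, Clec4a2 (-1.89, SE 0.49) and Treml4 (1.70, SE 0.42) in LPS vs Ctrl, and those of Treml4 (2.93, SE 0.42), Cd200r1 (-1.64, SE 0.31) and Lair1 (-1.40, SE 0.26), a collagen receptor, in LPSEff vs Eff. Clec12a, an inhibitory receptor for crystals of uric acid, was the 1 gene of this list called in Eff vs Ctrl (-1.22, SE 0.17, adjusted p = 0.0402), beside 0.251% of all genes, and by limma 0 were called in LPSEff vs LPS, where 4 had an unadjusted p under 0.05, beside 10.3% of all genes.

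The genes most like a member over the 8 samples were named by Pearson's r of log2 values, as a description, since the samples fall into groups and share their libraries. For Cd300lb these were Sgsm3 (r = 0.996), Foxo4 and Lmnb2 (both r = 0.995). Sgsm3 went from 276 and 244 normalized counts in Ctrl to 111 and 105 in LPS, a far smaller range than that of Cd300lb. For Cd300lf they were Scrib (r = 0.993), 1700017B05Rik (r = 0.984) and Fbxl14 (r = 0.978). For Cd300a they were Cebpz (r = 0.994), Cenpf (r = 0.991) and Mrpl49 (r = 0.989), for Cd300ld Gid4, Mpzl1 and Zfp146 (r = 0.989 to 0.99), for Cd300c2 Rpf1, Tmed10 and Ddb1 (r = 0.99 to 0.996), and for Cd300e Ufl1, Aimp1 and Heg1 (r = 0.942 to 0.965). Among the members, r was highest between Cd300a and Cd300ld (0.93) and between Cd300a and Cd300c2 (0.91), and was 0.04 between Cd300c2 and Cd300lf and -0.32 between Cd300e and Cd300lf. Cd300c2, Cd300e and Cd300lf all had lower means after LPS/IFNγ. Between samples 1 and 2, however, Cd300lf differed in the opposite direction to Cd300c2 and Cd300e in 4 of 4 groups. A low r here thus need not mean unlike responses to the stimulus.

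Markers of other cells moved with some of these groups. The 14 fibroblast markers summed to 548 to 573 normalized counts in Ctrl, 2254 to 4441 in LPS, 2787 to 5584 in Eff and 7734 to 9595 in LPSEff. Most of the sum in LPS was Lox (3620 and 1335), while Col1a1 was at 16.8 and 38.6 there and at 193 and 284 in Eff. Of 13 tested, 3 were called higher in LPS vs Ctrl, beside 12.4% of all genes. In Eff vs Ctrl 7 were called higher and in LPSEff vs LPS 8, beside 0.251% and 0.773% of all genes called in either direction. Efemp1 was at 0 in both Ctrl samples. The 10 neutrophil markers summed to 728 to 1120 normalized counts in Ctrl, 1865 to 2218 in LPS, 1144 to 1624 in Eff and 1871 to 2649 in LPSEff. These sums came mostly from S100a8 (570 and 573 in LPS) and S100a9 (705 and 954 in LPS), and Retnlg was at 0 in Ctrl and LPS. The 9 dendritic cell markers summed to 2397 to 3229 in Ctrl, 8547 to 16604 in LPS, 1469 to 1973 in Eff and 6781 to 6836 in LPSEff. These sums came mostly from Ccr7, which had 7649 and 14409 in LPS. The 10 mast cell and basophil markers summed to 958 to 1009 in Ctrl, 294 to 458 in LPS, 707 to 856 in Eff and 226 to 416 in LPSEff, mostly from Kit, with Mcpt4 at 0 in Ctrl, LPS and LPSEff. Of 4 tested, Kit alone was lower in LPS than in Ctrl, and the other 3 had higher mean log2 values. The 8 lymphocyte markers summed to at most 20.7. The part of these cells in the CD300 levels was not tested.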

How the data were processed

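Total RNA was depleted of rRNA and sequenced as single-end reads in 8 samples (4 groups, n = 2). Adapters were trimmed by the authors (cutadapt) and rRNA reads filtered out (Bowtie2), before alignment to mm39 by STAR and counting per gene by HTSeq in its default mode, which counts by strand and leaves out reads with several matches. Their own comparisons were made with DESeq2. Tool versions and the annotation release are not given in the sources used here. The values the authors deposited are a normalized signal per gene, the read count divided by a size factor per sample. Each sample's smallest nonzero value was set as 1 read, and 100% of the values equalled a whole number of such reads (tolerance 0.01). Recovered reads numbered 3481288 to 12020918 per sample.

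Of 55359 genes, 54749 were named from GENCODE annotation of GRCm39. The 16309 genes whose mean reached 10 normalized counts were tested by limma's trended moderated test (version 3.58.1, run in R 4.3.3) of log2(normalized count + 1), with the 4 group means in a single fit (4 residual degrees of freedom) and Benjamini-Hochberg adjustment over all of them. The smallest p of an exact permutation test with 2 samples on each side would be 0.333. No p-value is given for the members in LPS vs Ctrl or for Cd300lb in LPSEff vs Eff. The members and lists were chosen with earlier results of these data known, and no list was tested as a set. From the list of partners 1 gene is not reported here. Genes named are the members, the other Cd300 genes, overlapping genes, called partners plus Tyrobp, Fcer1g, Ptpn6, Ptpn11 and Inpp5d, the 3 largest called changes per comparison of the list of other receptors, and the 3 genes (mean of at least 50) most correlated with each member.

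Alternatives were pseudocounts of 0.5 and 5, a mean above 0 or of at least 50 as the filter, only the groups compared, the replicate number as a block, quantile normalization, totals made equal, count tests of the recovered reads by edgeR (TMM, version 4.0.16) and by DESeq2 (version 1.42.0), and leaving out each sample in turn. On these reads, edgeR called 3991 genes in LPS vs Ctrl, 3509 for LPSEff vs Eff, 14 for Eff vs Ctrl, and 126 for LPSEff vs LPS, beside 3910, 3213, 41 and 126 with limma. The fit was also run on simulated counts, drawn independently for each sample. The likeness of same-numbered samples was not simulated, and nothing is read from that run. Searches of the promoters for 2 longer motifs, an interferon-stimulated response element and an Ets-IRF composite, were also made and are not reported here. The other experiments of the study were not analysed here.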

Additional observations from a re-analysis of the deposited data

How the results depend on the processing

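By limma, edgeR or DESeq2, 0 members were called in Eff vs Ctrl, LPSEff vs LPS or the interaction under any alternative run. The 3 calls in LPS vs Ctrl became 1 to 3 when each sample was left out in turn, and the 1 call in LPSEff vs Eff became 1 to 2. In LPSEff vs Eff, 2 members were called with quantile normalization, 4 with equal totals and 3 with DESeq2. The median of all genes was -0.01 in LPS vs Ctrl and 0.01 in LPSEff vs Eff as deposited, -0.40 and -0.44 with equal totals, and -0.09 and -0.10 with quantile normalization, and the share of higher genes among all calls went from 51.5% and 54.6% to 24.8% and 21.8% with equal totals and to 44.5% and 43.9% with quantile normalization. The median of the members stayed below that of all genes under both (-1.74 and -1.43, and -1.47 and -1.18). Nothing is read from this, since the members were chosen with values of these samples known. The cause of these changes in calls was not tested.

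With the replicate number as a block, 5 members were called in LPS vs Ctrl and 5 in LPSEff vs Eff, all but Cd300e, and limma then called 6717 and 6033 genes for LPS/IFNγ in naïve and efferocytic BMDMs and 436 and 1137 for efferocytosis without and with LPS/IFNγ. Sample 2 minus sample 1, taken for each gene, correlated between groups with r from 0.404 to 0.595, a hint from the data, not the design. DESeq2 called 204 and 368 genes in Eff vs Ctrl and LPSEff vs LPS.

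Leaving out a sample turned the sign of small differences. Cd300e ranged from -2.02 to 0.185 in LPS vs Ctrl, -1.91 to 1.24 in LPSEff vs Eff, -2.50 to 0.66 in Eff vs Ctrl, -1.10 to 0.42 in LPSEff vs LPS and -0.998 to 2.16 in the interaction. In Eff vs Ctrl, Cd300a ranged from -0.66 to 0.15, Cd300c2 from -0.0746 to 0.51, Cd300lb from -0.0576 to 0.28, Cd300ld from -0.15 to 0.35 and Cd300lf from -0.10 to 0.56. In LPSEff vs LPS, Cd300a ranged from -0.0281 to 1.54, Cd300c2 from -0.36 to 0.67 and Cd300lf from -0.21 to 1.01. In the interaction, Cd300c2 ranged from -0.58 to 0.45, Cd300ld from -0.0037 to 1.13 and Cd300lf from -0.43 to 0.78. In the LPS/IFNγ comparisons, 3 further members kept their sign but moved in size, Cd300a between -3.07 and -1.51 in LPS vs Ctrl and between -1.83 and -0.72 in LPSEff vs Eff, Cd300c2 between -1.09 and -0.25 and between -1.25 and -0.22, and Cd300lf between -1.56 and -0.35 and between -1.17 and -0.40. With 2 samples per group and 3 to 12 reads of Cd300c, no statement on that gene's change could be made.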
